A study of Mus musculus with 18 samples.

Results

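The response of control mouse brain endothelium to low oxygen was measured in animals whose Pdcd10 gene was left intact. The libraries were chosen by their labels and came to 8 of the 18 in the series: 4 named hypoxia flox, from mice kept at 12% oxygen for 7 days, and 4 named normoxia flox, from mice kept at 21% oxygen. These mice carried Pdcd10fl/fl, the loxP-flanked alleles of the gene for the scaffold protein CCM3, together with the Aldh1l1-EGFP/Rpl10a reporter, and lacked the Slco1c1-iCreERT2 driver. The 10 KO libraries, 5 per oxygen level, came from mice of that same background with the driver, which deletes Pdcd10 in brain endothelium, and serve here only as a comparison. The mice are described as injected with 50 µg of 4-hydroxytamoxifen into the stomach on postnatal day 1, without a split by genotype, and cells were isolated on postnatal day 57. Uninjected driver animals are mentioned as further controls in the design text, with no word on the libraries they might have given. The labels do not say whether a library came from 1 animal or from a pool, so the p-values measure the spread between these libraries.

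Cells sense oxygen through prolyl hydroxylases, which mark the alpha subunits of the hypoxia-inducible factors (HIF) for destruction while oxygen is plentiful. In low oxygen the stabilised factors switch on genes for glycolysis, glucose uptake, blood vessel growth and the hydroxylases themselves. Endothelial cells of the adult brain rarely divide, and sustained mild hypoxia is known to make the capillary bed grow, a process in which sprouting tip cells lead, endothelial cells divide and new basement membrane is laid down. Dividing cells switch on a large block of genes from S phase to mitosis, many of them through a CCAAT box and a cell cycle homology region (CHR) near the start of the gene.

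The promoters below were picked after the motif search, as clear examples of each motif. Of the other windows looked at, that of Bub1, which rose, held no CHR, and those of Pdk1 and Apln, which rose, and of Vegfa, which did not pass the test, held no HIF core. Each is the 250 bases before the start of the gene, from RefSeq on GRCm38.p6, 5′ to 3′ on the gene's own strand; the counts were made on GRCm39. In the 3 promoters of cell cycle genes that rose, capitals mark CCAAT boxes (CCAAT, or ATTGG on the other strand) and CHR elements (TTTGAA, or TTCAAA on the other strand). Cdk1 is the kinase that drives mitosis (chr10:69352913-69353162, minus strand), Top2a untangles DNA before division (chr11:99024190-99024439, minus strand) and Cdc20 activates the complex that triggers anaphase (chr4:118437344-118437593, minus strand).
Cdk1: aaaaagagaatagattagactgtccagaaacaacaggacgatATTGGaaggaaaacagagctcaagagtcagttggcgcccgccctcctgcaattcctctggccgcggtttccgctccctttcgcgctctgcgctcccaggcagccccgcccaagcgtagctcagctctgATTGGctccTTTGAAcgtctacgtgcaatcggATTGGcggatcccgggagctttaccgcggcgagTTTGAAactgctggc
Top2a: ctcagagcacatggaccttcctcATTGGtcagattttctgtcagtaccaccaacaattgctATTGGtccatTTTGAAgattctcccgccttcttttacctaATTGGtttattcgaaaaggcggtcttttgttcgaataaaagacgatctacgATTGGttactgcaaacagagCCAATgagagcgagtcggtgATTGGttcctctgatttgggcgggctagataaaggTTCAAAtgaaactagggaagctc
Cdc20: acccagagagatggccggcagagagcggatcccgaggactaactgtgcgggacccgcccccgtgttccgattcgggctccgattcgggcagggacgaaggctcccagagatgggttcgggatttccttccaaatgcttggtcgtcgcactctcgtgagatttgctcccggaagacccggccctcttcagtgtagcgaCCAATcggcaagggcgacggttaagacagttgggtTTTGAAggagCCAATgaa

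The next pair are promoters of classical HIF targets, with capitals for the core of the HIF binding element (ACGTG, or CACGT on the other strand; the letters CACGTG hold 1 on each strand). Ldha encodes lactate dehydrogenase A (chr7:46845554-46845803, plus strand) and rose slightly. Slc2a1 encodes the glucose transporter GLUT1 (chr4:119108495-119108744, plus strand) and did not pass the test.
Ldha: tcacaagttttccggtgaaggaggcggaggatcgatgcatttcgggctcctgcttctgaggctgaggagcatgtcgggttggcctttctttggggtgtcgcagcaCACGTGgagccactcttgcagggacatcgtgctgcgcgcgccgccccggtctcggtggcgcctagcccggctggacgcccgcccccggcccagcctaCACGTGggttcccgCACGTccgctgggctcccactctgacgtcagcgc
Slc2a1: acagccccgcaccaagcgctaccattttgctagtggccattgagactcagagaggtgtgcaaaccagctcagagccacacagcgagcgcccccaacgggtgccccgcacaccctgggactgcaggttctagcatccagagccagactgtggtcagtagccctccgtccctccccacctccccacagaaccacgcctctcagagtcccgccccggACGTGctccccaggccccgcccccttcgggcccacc

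A window was listed for 11699 of the 17531 genes tested. Of those 11699 windows, 36.2% held a CCAAT box, 10.9% a CHR and 21.0% a HIF core on either strand; over all 27025 RefSeq windows the shares were 34.5%, 16.3% and 16.6%. Among the 101 windows of genes that rose by at least 2 on the log2 scale, 67.3% held a CCAAT box and 26.7% a CHR, and 17.8% held a HIF core. Among the 136 windows of genes that rose by less than 1, the shares were 36.8%, 12.5% and 19.9%. The 66 windows of genes that fell held a CCAAT box in 28.8%, a CHR in 4.55% and a HIF core in 15.2%. A match is a description of the letters and not a binding site.

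The flox libraries held from 18700135 to 24239786 counts and the KO libraries from 17931197 to 31193333. Levels are given as CPM, each gene's counts as a share of the scaled library total. The 14 endothelial markers were abundant throughout, their summed level running from 17170 to 26300 CPM in normoxia flox and from 21140 to 25380 in hypoxia flox. Pdcd10 was at 41.2, 45.0, 40.3 and 30.6 CPM in the normoxia flox libraries and at 37.7, 49.0, 44.4 and 60.9 CPM in the hypoxia flox libraries, against 16.3 to 25.3 CPM in the KO libraries. Normoxia flox 4 carried neural RNA: its summed neuron markers came to 3539 CPM, and the synaptic vesicle gene Syt1 to 838 CPM, against at most 111.5 and 8.68 CPM in the hypoxia flox libraries. All 4 hypoxia flox libraries and normoxia flox 1 held the Y-linked Ddx3y (135.3 to 160.1 CPM) with the X inactivation transcript Xist at 1.72 CPM or less. Normoxia flox 2 held Xist alone, and normoxia flox 3 and 4 held both, so the mix of male and female RNA moved with oxygen. The immediate early gene Fos ran from 292 to 4749 CPM in normoxia and from 221 to 3088 CPM in hypoxia, so the groups overlapped.

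More genes passed the test as higher in hypoxia than as lower, whereas the tally at an unadjusted p leaned the other way. Of the 17531 genes tested among 57010 in the table, 492 (2.81%) passed the edgeR quasi-likelihood test at an adjusted p under 0.05. Of these, 411 rose (2.34% of all genes tested) and 81 fell (0.462%). Large changes were almost all increases: 129 genes rose by at least 2 on the log2 scale and 5 fell by as much, and at 3 or more the counts were 71 and 0. At an unadjusted p under 0.05 the tally was the opposite one. It had 1279 genes higher (7.30% of all genes tested) and 1840 lower (10.5%), 17.8% in all. These are the shares against which the unadjusted counts of the lists can be read. The lower tally included 11 of 13 neuron markers and 8 of 14 microglia and macrophage markers. The part of the neural RNA of normoxia flox 4 in that tally was not tested. The median log2 fold change was 1.24 among the genes that rose, -0.81 among those that fell and -0.03 over all genes tested. In 483 of the 492 genes the libraries of the groups did not overlap, against 8.50% of all genes tested (5.36% higher and 3.15% lower). The test called 283 of the 492 again in each of the 8 fits that left out 1 flox library, 265 of them higher and 18 lower. With only the 8 flox libraries in the fit, 329 genes were called, 290 of the 492 among them. With normoxia flox 4 and normoxia KO 4 left out because of their neural RNA, 690 genes were called, 485 higher and 205 lower. With a covariate for the balance of Y-linked and Xist RNA, 360 were called. With normoxia flox 1 as the only normoxia flox library, the number was 92, 85 of them higher.

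**Figure D1:**
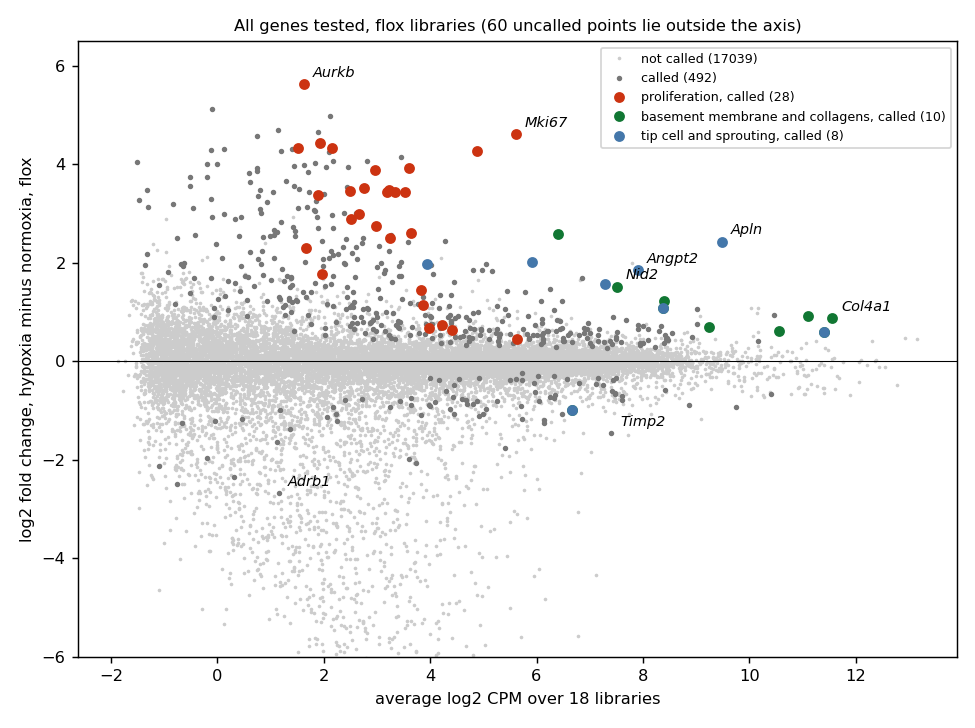
Log2 fold change between hypoxia flox and normoxia flox (vertical axis) against the average log2 CPM over 18 libraries (horizontal axis), 1 point per gene tested. Grey points did not pass the test, dark points did, and colours mark the passing members of 3 lists; the red proliferation genes reach from 0.45 to 5.63, and the cloud of uncalled points at strongly negative values sits at low to middle levels, with 60 more outside the axis.

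Cell cycle genes made up the strongest part of the response. Of 32 proliferation genes tested, 28 rose and none fell, with a median log2 fold change of 2.95, where 2.34% of all genes tested rose. In 31 of the 32 the libraries of the groups did not overlap. In these bulk samples more dividing cells and more RNA per dividing cell cannot be told apart. Mki67, which encodes the antigen Ki-67 of dividing cells, stood at 3.60, 2.53, 2.21 and 8.36 CPM in normoxia and at 148.1, 106.3, 83.2 and 76.8 CPM in hypoxia. Every hypoxia library was above every normoxia library, and the highest normoxia value was that of the library with neural RNA. The log2 fold change of Mki67 was 4.62 ± 0.50 (SE; adjusted p = 3.65e-05, edgeR). Summed over the list, the level was 200 to 245.2 CPM in normoxia and 574.7 to 834.3 CPM in hypoxia. The call held for 27 members without the libraries of neural RNA, for 27 with the sex covariate and for 15 with normoxia flox 1 as the only normoxia flox library.

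The mitotic kinases rose together. Cdk1 went from 0.992, 0.937, 0.391 and 1.26 CPM to 15.2, 13.6, 11.8 and 12.6 CPM, a log2 fold change of 3.89 ± 0.33 (adjusted p = 4.92e-06, edgeR). That p was the smallest in the comparison and was shared by 12 genes. Aurkb, the kinase of the chromosomal passenger complex, had the largest change among named genes, from 0, 0.141, 0.0434 and 0.245 CPM to 6.71, 6.39, 5.79 and 4.55 CPM (log2 fold change 5.63 ± 0.61). Its partners Birc5, which encodes survivin, and Incenp rose by 4.33 ± 0.59 and 1.30 ± 0.13. Without normoxia flox 4 the change of Birc5 was 6.63. Plk1, Aurka and Bub1 rose by 2.29, 1.77 and 4.44. None of these genes had overlapping groups, which the naming rule required of some of them. In normoxia all of them except Incenp were below 3 CPM, so the size of their changes rests on few counts in that group.

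The cyclins of S phase and mitosis rose most. Ccna2, Ccnb1 and Ccnb2, which act from S phase to mitosis, rose by 3.44, 3.37 and 3.46. Among the D cyclins, which act in G1, Ccnd1 rose by 0.74 ± 0.18 (87.1, 74.8, 72.2 and 102 CPM to 165, 136, 152 and 107 CPM), and it was called in only 2 of the 8 fits that left out 1 flox library. Ccnd2 and Ccnd3 had log2 fold changes of -0.46 (adjusted p = 0.0877, edgeR) and 0.29 (adjusted p = 0.205, edgeR). The E cyclins Ccne1 and Ccne2, which open S phase, had values of 0.66 and 0.76 and did not pass. In all, edgeR called 4 of the 8 A, B, D and E cyclins higher and none lower, and DESeq2 called 5 higher and 1 lower. By edgeR 2.34% of all genes tested rose. Of 8 cyclin-dependent kinases, Cdk1 alone passed.

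The machinery that attaches chromosomes to the spindle followed. Families of related genes were grouped by symbol after the values were seen, so their counts are descriptions. Over all genes tested 2.34% rose and 0.462% fell. Of 20 centromere proteins (Cenp), 9 rose; of 12 Ndc80 and Ska complex genes, which bind microtubule ends, 7 rose; of 9 spindle checkpoint genes, 6 rose; of 8 condensin subunits, which compact chromosomes, 6 rose; and none in these families fell. Of 38 kinesins, the motor proteins of microtubules, 11 rose and none fell, while the family's median was -0.01. The kinesins that rose included the mitotic motors Kif11 (3.48 ± 0.36), Kif20a (2.90 ± 0.25) and Kif18b (4.67 ± 0.43). Espl1, the protease separase that splits sister chromatids, went from 1.2, 1.03, 1.39 and 1.51 CPM to 8.42, 6.66, 7.03 and 6.91 CPM (log2 fold change 2.49 ± 0.20). The groups stood well apart in each of these examples, and the rule that named Kif18b required no overlap.

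Genes of DNA replication rose as well. The MCM helicase unwinds DNA at replication forks. Of its 9 genes tested 6 rose, where 2.34% of all genes did, with a family median of 0.64. Mcm5 went from 7.41, 7.78, 8.72 and 7.05 CPM to 18.5, 16.1, 17.9 and 15.7 CPM (log2 fold change 1.14 ± 0.21), and Mcm2 rose by 0.73 ± 0.15. Mcm6 rose by 0.45, and its call was lost in 1 of 8 leave-one-out fits. Mcm4 did not pass, at 0.30 (adjusted p = 0.271, edgeR). Of 17 genes that license or fire replication origins, 6 rose, among them Cdc6 (2.55 ± 0.34) and Cdt1 (1.59 ± 0.27). Rrm2, a subunit of the enzyme that makes deoxynucleotides, rose by 2.75 ± 0.44, from at most 3.91 CPM to at least 10.2 CPM. Uhrf1, which copies DNA methylation onto new strands, stood at 4.54, 5.16, 5.08 and 6.16 CPM in normoxia and at 20.7, 16.6, 16.5 and 17.8 CPM in hypoxia. Its log2 fold change was 1.77 ± 0.14, an estimate with a small standard error for a gene of this level.

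Pcna, the sliding clamp of DNA polymerase and a usual marker of S phase, did not pass the test. Its levels were 84.8, 49.0, 36.9 and 41.8 CPM in normoxia and 94.1, 59.8, 44.2 and 37.5 CPM in hypoxia, so the groups overlapped. The log2 fold change was 0.15, with a 95% interval of -0.78 to 1.08. Within each group the highest Pcna value belonged to the library with the highest Fos (normoxia flox 1 and hypoxia flox 2); the part of this difference between libraries in the Pcna result was not tested.

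Some transcription factors and chromatin genes linked to the cell cycle also rose, where 2.34% of all genes tested did. Foxm1, a transcription factor of mitotic genes, went from 4.85, 4.50, 4.25 and 3.59 CPM to 22.1, 18, 15.6 and 14.3 CPM (log2 fold change 2.03 ± 0.22). Mybl2, its partner, rose by 1.28 ± 0.21. Of 8 E2F factors, E2f2 (2.71 ± 0.32) and E2f8 (3.93 ± 0.63) rose, whereas E2f1 had 1.41 ± 0.61 and did not pass (adjusted p = 0.245, edgeR). The histone methyltransferase Ezh2 and the histone chaperone Asf1b rose by 0.95 and 3.64.

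Some genes that restrain the cycle rose too. Of 20 p53 targets and cell cycle brakes, 2 rose, where 2.34% of all genes did. Cdkn2c, an inhibitor of the G1 kinases, went from 7.62, 7.12, 7.64 and 6.28 CPM to 16.3, 14.4, 12.1 and 13.5 CPM (log2 fold change 0.98 ± 0.12). Trp53 rose by 0.61 ± 0.14 and was called in 3 of the 8 leave-one-out fits. Cdkn1a, the inhibitor p21, had a log2 fold change of 0.00 with a 95% interval of -0.87 to 0.88. Lmnb1 and Lmnb2, the B-type lamins of the nuclear envelope, rose by 1.62 and 0.50, while Lmna had -0.29 and did not pass.

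**Figure D2:**
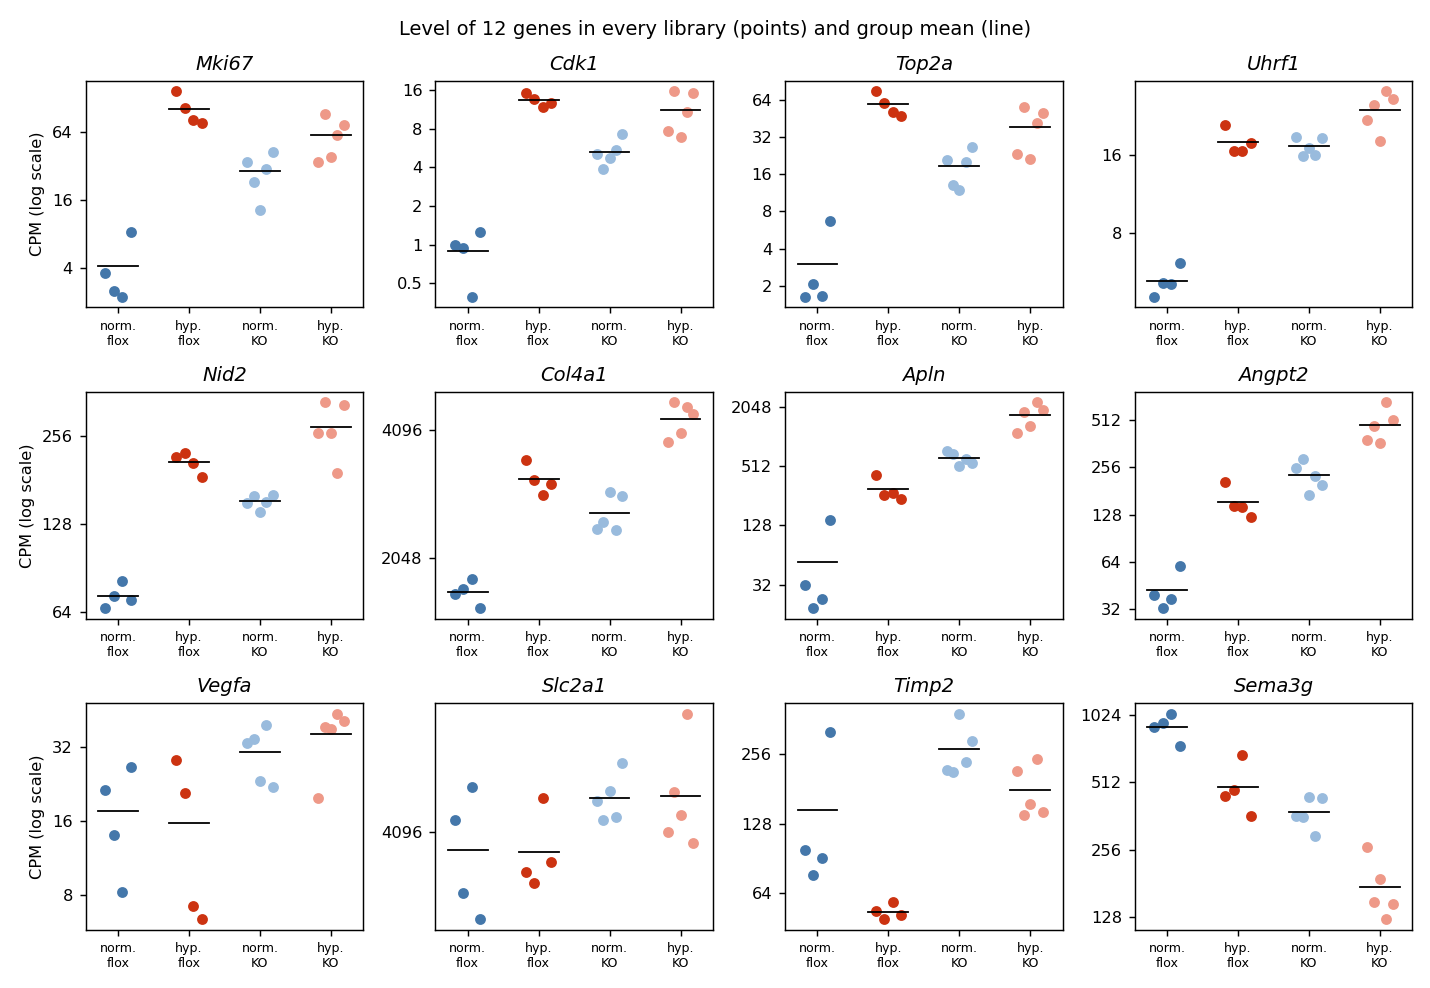
CPM of 12 genes on a log axis (vertical) in each library, by group (horizontal: normoxia flox, hypoxia flox, normoxia KO, hypoxia KO); points are libraries and lines are group means. The flox groups are apart for Mki67, Cdk1, Top2a, Uhrf1, Nid2, Col4a1, Apln, Angpt2, Timp2 and Sema3g and overlap for Vegfa and Slc2a1.

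Components of the vascular basement membrane rose in a narrower set. Of 22 basement membrane and collagen genes tested, 9 rose and 1 fell, against 2.34% and 0.462% of all genes, and the list's median was 0.14. The counts were 9 and 1 without the libraries of neural RNA, 8 and 0 with the sex covariate, and 5 and 0 with normoxia flox 1 as the only normoxia flox library. The members that rose were the chains and linkers of the capillary membrane. Col4a1 and Col4a2, the paired chains of collagen IV, rose by 0.88 ± 0.10 and 0.92 ± 0.10. Col4a1 stood at 1691, 1731, 1833 and 1561 CPM in normoxia and at 3481, 3131, 2882 and 3070 CPM in hypoxia, with a wide gap between the groups. The other 4 collagen IV chains, Col4a3 to Col4a6, did not pass.

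Nidogens link the laminin and collagen IV networks, and both rose. Nid2 went from 66.0, 72.5, 82.0 and 70.2 CPM to 216, 224, 207 and 186 CPM (log2 fold change 1.52 ± 0.14, adjusted p = 5.47e-06, edgeR). Nid1 went from 144, 130, 156 and 146 CPM to 377, 334, 326 and 315 CPM (1.23 ± 0.12). The libraries within a group were close to each other in both genes, and the groups did not meet. Hspg2, the proteoglycan perlecan, rose by 0.62 ± 0.14 and Sparc, a collagen-binding matricellular protein, by 0.61 ± 0.13. Hspg2 was called in 6 of the 8 leave-one-out fits and Sparc in all 8.

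Laminins are trimers of an alpha, a beta and a gamma chain. Of 11 laminin chains, Lama1, Lama4, Lamb1 and Lamc1 rose and Lamc3 fell, beside 2.34% and 0.462% of all genes tested. Lamb1 went from 11.3, 9.98, 15.5 and 32.7 CPM to 134, 114, 96.0 and 73.3 CPM (log2 fold change 2.58 ± 0.36); the highest normoxia value was again normoxia flox 4. Lama4, the alpha chain of endothelial laminin, rose by 1.09 ± 0.13, Lamc1 by 0.69 ± 0.09 and Lama1 by 1.34 ± 0.23. Lamc3 went from 85.6, 90.5, 100 and 60.9 CPM to 30.8, 40.5, 55.0 and 24.1 CPM (-1.17 ± 0.21). Lamc3 did not pass with only the flox libraries in the fit (-1.18, adjusted p = 0.0728, edgeR). On the per-length scale of the deposited RPKM, Lamb1 was at 1.1 to 3.3 in normoxia and at 8.1 to 13.9 in hypoxia, still below the other beta chain Lamb2, at 119.9 to 175.6 and 121.7 to 171.7. Lamb2 and the alpha chain Lama5 did not pass, with log2 fold changes of 0.01 and -0.03.

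Some enzymes that mature collagen rose and some inhibitors of matrix proteases fell, where 2.34% of all genes tested rose and 0.462% fell. Of 20 collagen-modifying enzymes, grouped after the values were seen, edgeR called 4 higher and none lower, with a family median of 0.03, and DESeq2 called 4 higher and 2 lower. Pxdn, the peroxidase that crosslinks collagen IV, went from 19.9, 20.2, 21.1 and 52.5 CPM to 112, 102, 78.6 and 74.2 CPM (log2 fold change 1.69 ± 0.26). Loxl2, a lysyl oxidase of the same matrix, rose by 1.86 ± 0.24, the chaperone Fkbp10 by 1.12 ± 0.16 and the lysyl hydroxylase Plod1 by 0.41 ± 0.08. Of the 4 TIMP genes, which inhibit metalloproteases, Timp2 and Timp3 fell. Timp2 was at 98.6, 76.7, 91.3 and 318 CPM in normoxia and at 53.9, 49.4, 58.5 and 51.8 CPM in hypoxia (-1.45 ± 0.37). Without normoxia flox 4, which held the 318 CPM, its change was -0.74 and did not pass (adjusted p = 0.0776, edgeR). Timp3 fell by 0.92 on the log2 scale and Col18a1, the source of endostatin, by 0.99; they were called in 4 and 2 of the 8 leave-one-out fits.

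**Figure D3:**
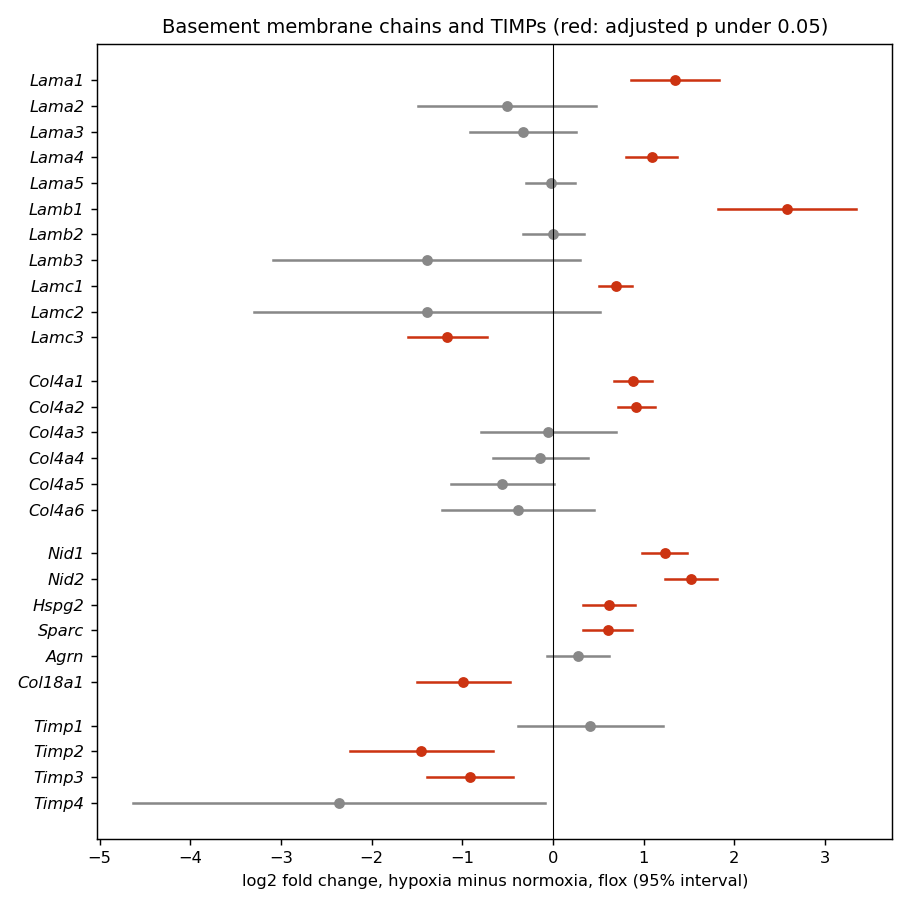
Log2 fold change between hypoxia flox and normoxia flox (horizontal axis) with its 95% interval for the laminin chains, collagen IV chains, other basement membrane genes and TIMPs (rows); red marks an adjusted p under 0.05. Intervals of Lamb1, Nid2, Lama1, Nid1 and Lama4 lie furthest to the right, and Lamc3, Timp2, Col18a1 and Timp3 are the red points left of 0.

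The fibrillar collagens of the list did not pass the test, and Col1a1 was high in single libraries. Col1a1 reached 509 CPM in 1 normoxia library, normoxia flox 1, and 249 CPM in 1 hypoxia library, hypoxia flox 3, and was at 15.3 CPM or less in the other 6. The summed fibroblast markers ran from 118.3 to 1198 CPM in normoxia and from 153.6 to 772.5 CPM in hypoxia. Pericyte markers ran from 526.8 to 1547 CPM and from 343.3 to 1338 CPM. Neither the pericyte nor the smooth muscle list had a member called by edgeR or DESeq2 (1 of 13 and 4 of 11 at an unadjusted p under 0.05). Of 12 fibroblast markers, Lama1 passed. The part of these cells in the matrix result was not tested.

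Genes for other secreted, surface and intracellular proteins rose as well, and they were picked after their values were seen. Over all genes tested 2.34% rose. Adamts9 and Adamts12 were the 2 of 16 ADAMTS proteases that rose, by 1.04 ± 0.20 and 1.62 ± 0.19. Itga4, a fibronectin receptor chain and the 1 of 24 integrins called, went from 47.8, 50.5, 48.7 and 39.5 CPM to 127, 122, 106 and 82.9 CPM. Nox4, an oxidase that produces hydrogen peroxide, went from 0.731, 0.281, 0.695 and 1.06 CPM to 7.59, 5.79, 5.45 and 3.87 CPM (log2 fold change 3.01 ± 0.34). Pcdh12, an endothelial protocadherin, rose by 1.47 ± 0.22, Meox1, a homeobox factor, by 1.41 ± 0.15 and Vash1, an angiogenesis inhibitor made by endothelial cells, by 0.66 ± 0.09. Tmsb10 and Tmsb4x, the thymosins that bind actin monomers, rose by 1.05 ± 0.11 and 0.41 ± 0.07. Each of these genes was called in all 8 leave-one-out fits.

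Genes of sprouting endothelium rose in part, beside 2.34% of all genes tested that rose and 0.462% that fell. Of 26 tip cell and sprouting genes, 7 rose and 1 fell, with a median of 0.53; the counts were 8 and 2 without the libraries of neural RNA, 6 and 0 with the sex covariate, and 3 and 0 with normoxia flox 1 as the only normoxia flox library. Angpt2, the ligand that loosens vessels for growth, was at 39.8, 32.5, 37.5 and 60.5 CPM in normoxia and at 205, 146, 144 and 123 CPM in hypoxia (log2 fold change 1.86 ± 0.23). Apln, the peptide of tip cells, was at 32.2, 18.5, 22.9 and 146 CPM and at 418, 258, 273 and 238 CPM (2.43 ± 0.52). Its receptor gene Aplnr was at 15.3, 13.6, 24.9 and 29.1 CPM and at 79.1, 82.1, 85.2 and 88.5 CPM (2.01 ± 0.49). All 3 were separate between the groups. Sparc, Lama4 and Col18a1 stand both on this list and among the basement membrane genes. Angpt2 was called in all 8 leave-one-out fits and Aplnr in 1. Apln was called in 7, with a change of 2.25 (adjusted p = 0.0555, edgeR) without normoxia flox 1. It did not pass with the sex covariate (2.25, adjusted p = 0.0561, edgeR). Nor did it with only the flox libraries in the fit (2.41, adjusted p = 0.214, edgeR). Trp53i11 and Lcp2 rose by 1.58 ± 0.26 and 1.97 ± 0.30. Trp53i11 did not pass with only the flox libraries in the fit (1.56, adjusted p = 0.0805, edgeR). Among tip cell genes that did not pass, Cxcr4 had 1.44, Esm1 0.98 and the Notch ligand Dll4 0.02.

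The VEGF ligand and receptor genes did not pass the test. Of 18 VEGF and angiopoietin genes, 3 rose, namely Angpt2, Apln and Aplnr, where 2.34% of all genes tested rose. Vegfa itself was at 21.4, 14.1, 8.20 and 26.5 CPM in normoxia and at 28.4, 20.9, 7.23 and 6.37 CPM in hypoxia. Its groups overlapped over nearly their whole range, with a log2 fold change of -0.16 and a 95% interval of -1.09 to 0.78. The receptor gene Kdr was higher in each hypoxia library (1241 to 1608 CPM) than in any normoxia library (672 to 1111 CPM), at 0.59 ± 0.23, and did not pass (adjusted p = 0.212, edgeR). Flt1, Tek and Tie1 had values of -0.06, 0.00 and 0.10. Angpt1, the stabilising ligand, had -1.07 (adjusted p = 0.121, edgeR).

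Classical hypoxia genes gave few calls and no common direction after 7 days. Of 39 HIF targets tested, edgeR called 3 higher and none lower, where 2.34% of all genes rose, and DESeq2 called 3 higher and 2 lower. At an unadjusted p under 0.05, 6 were higher and 6 lower, and the log2 fold changes ran from -3.27 to 2.01 with a median of 0.02. With a covariate for the immediate early genes, edgeR called 7, all higher, among them Adm (1.07, adjusted p = 0.0213). The 3 were Loxl2, Stc2, which encodes a secreted glycoprotein (1.88, 2.02, 1.69 and 2.61 CPM to 10.4, 6.80, 4.41 and 5.24 CPM; 1.71 ± 0.23), and Pdk1. Pdk1 encodes the kinase that diverts pyruvate from mitochondria and went from 20.7, 24.6, 23.9 and 27.3 CPM to 31.0, 38.9, 31.2 and 41.6 CPM (0.56 ± 0.11). Its groups were close but did not overlap. Pdk1 did not pass with only the flox libraries in the fit (0.55, adjusted p = 0.104, edgeR). Slc2a1 stood at 4256, 3396, 4716 and 3136 CPM in normoxia and at 3623, 3510, 4558 and 3736 CPM in hypoxia, with a 95% interval of -0.31 to 0.30 around -0.01. The interval leaves no room for a change of 1 in either direction on the log2 scale. Bnip3, Ankrd37, Car9 and Adm had 0.24, -0.11, -0.21 and 0.85 and did not pass. Egln3, a hydroxylase gene that HIF induces, had -0.03 with all libraries. Without normoxia flox 4, whose 4.61 CPM was the highest of the 8, Egln3 rose by 1.27 ± 0.31 (adjusted p = 0.0392, edgeR).

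The HIF subunits and oxygen sensors gave no call in 17 genes with edgeR or DESeq2, and 3 had an unadjusted p under 0.05. Hif1a was at 130, 117, 114 and 114 CPM in normoxia and at 144, 133, 141 and 176 CPM in hypoxia (0.32 ± 0.12, adjusted p = 0.214, edgeR). Epas1, the gene for HIF-2 alpha of endothelium, was at 4952, 5310, 4989 and 3303 CPM and at 3306, 3819, 4044 and 3567 CPM (-0.33 ± 0.14, adjusted p = 0.226, edgeR). Without normoxia flox 4, its lowest normoxia library, Epas1 fell by 0.48 on the log2 scale (adjusted p = 0.024, edgeR). Egln1 and Vhl, which form the sensing and destruction arm, had 0.02 and 0.16.

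Energy metabolism showed small shifts, and over all genes tested 2.34% rose and 0.462% fell. Of 17 glycolysis genes, Ldha rose, from 263, 230, 208 and 214 CPM to 289, 335, 286 and 360 CPM (0.47 ± 0.09), and the median was -0.01. Ldha was called in all 8 leave-one-out fits. It did not pass without the libraries that held both Xist and Y-linked RNA (0.35, adjusted p = 0.113, edgeR). Nor did it with only the flox libraries in the fit (0.46, adjusted p = 0.0967, edgeR). With normoxia flox 1 as the only normoxia flox library its change was 0.25. Of 40 nuclear genes of the respiratory chain, Cycs, the gene for cytochrome c, fell by 0.39 ± 0.09 and none rose, with a median of -0.18. It was called in 3 of the 8 leave-one-out fits. The 13 genes encoded by mitochondrial DNA had a median of -0.63; none was called by edgeR or DESeq2, and 10 had an unadjusted p under 0.05, all lower, where 10.5% of all genes were. Their summed level was 19380 to 46790 CPM in normoxia, with the maximum in the library of neural RNA, and 17400 to 20250 CPM in hypoxia. The group medians of that sum were 22150 CPM in normoxia and 18740 CPM in hypoxia. The part of that library in this shift was not tested. Slc16a1, which carries lactate and ketone bodies across the blood-brain barrier, rose from 866, 635, 754 and 694 CPM to 1281, 1309, 1084 and 1981 CPM (0.94 ± 0.18). Slc16a1 did not pass with only the flox libraries in the fit (0.93, adjusted p = 0.0605, edgeR).

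**Figure D4:**
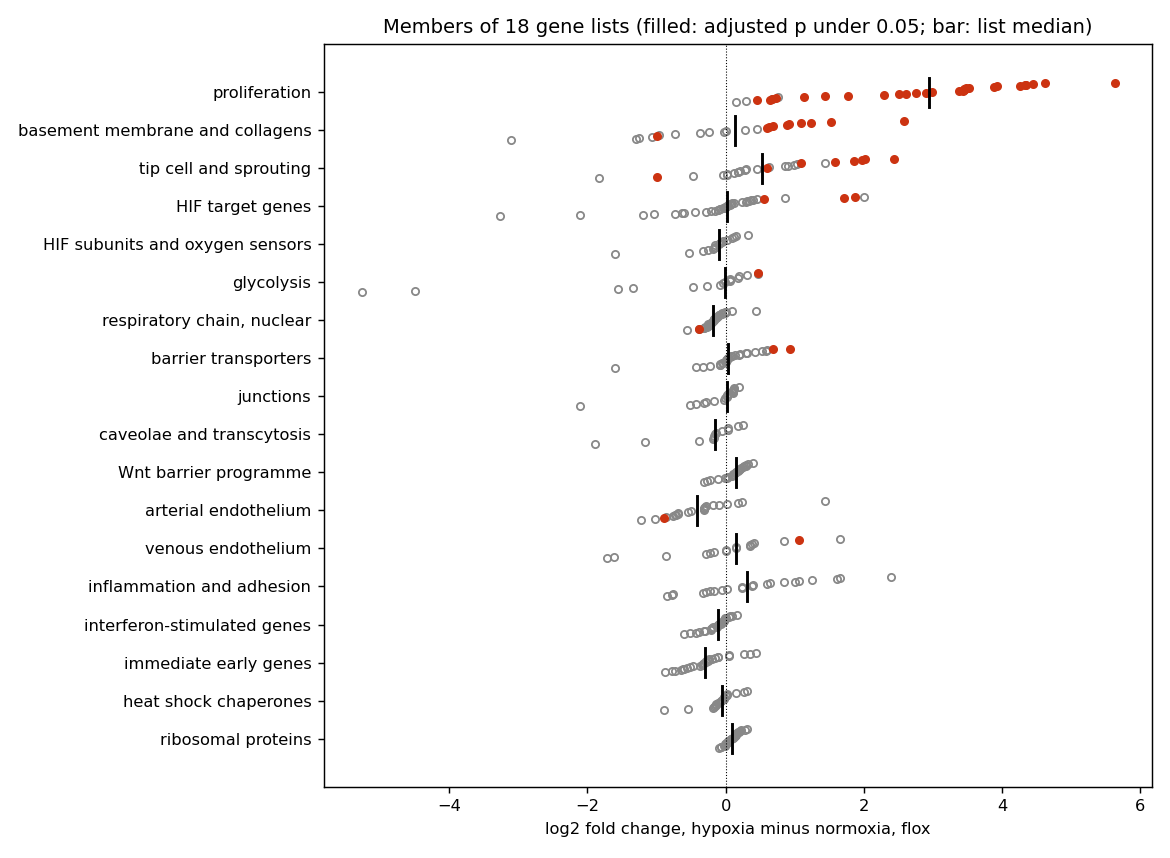
Log2 fold change between hypoxia flox and normoxia flox (horizontal axis) of the members of 18 gene lists (rows); filled points passed the test and bars are list medians. Proliferation genes lie almost wholly to the right with a median of 2.95, whereas the medians of all other lists lie between -0.41 and 0.53.

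The genes of barrier identity were described by transporters, junctions and transcytosis genes. Of 31 barrier transporters, edgeR called Slc16a1 and Abcc6 (0.69 ± 0.15, called in 3 of the 8 leave-one-out fits) higher and none lower, where 2.34% of all genes rose, and DESeq2 called 3 higher and 1 lower. None of 19 junction genes was called by edgeR or DESeq2, and 1 had an unadjusted p under 0.05. Cldn5, the main tight junction claudin of brain endothelium, was at 1536, 1840, 1918 and 1313 CPM in normoxia and at 1440, 1795, 1712 and 1738 CPM in hypoxia, with a 95% interval of -0.26 to 0.29. Mfsd2a, which suppresses transcytosis, and the efflux pump Abcb1a had intervals of -0.34 to 0.42 and -0.23 to 0.29. Of 13 caveolae and transcytosis genes none passed edgeR, 1 passed DESeq2 and 4 had an unadjusted p under 0.05. Of 23 genes of the Wnt barrier programme none passed edgeR or DESeq2, and 3 had an unadjusted p under 0.05. Plvap, the fenestral protein of leaky vessels, ran from 1.08 to 34.8 CPM in normoxia and from 2.10 to 6.41 CPM in hypoxia and did not pass.

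The arterial genes had a negative median and 1 call, a decrease, where 0.462% of all genes tested fell. Of 22 arterial genes, Sema3g, a semaphorin of arterial endothelium, fell from 907, 943, 1039 and 744 CPM to 443, 472, 680 and 361 CPM (-0.89 ± 0.22), and the list's median was -0.41, against -0.03 over all genes. Sema3g was called in 2 of the 8 leave-one-out fits, with changes from -1.10 to -0.78. At an unadjusted p under 0.05, 11 of the 22 arterial genes were lower and 1 higher, where 10.5% and 7.30% of all genes were. Gja5, the arterial connexin 40, had -0.74 (adjusted p = 0.218, edgeR). Of 16 Notch pathway genes, Lfng, which modifies Notch receptors, fell by 0.80 ± 0.17. Lfng was called in 5 of the 8 leave-one-out fits, and with the sex covariate it had -0.58 (adjusted p = 0.067, edgeR). Of 17 venous genes, Tmsb10 rose. The summed smooth muscle markers ran from 725.8 to 1289 CPM in normoxia and from 569.7 to 934.4 CPM in hypoxia, and their part in the arterial values was not tested.

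The genes that fell were fewer and their changes smaller. Among the named genes the largest decreases were those of Adrb1, the beta-1 adrenergic receptor (2.19, 2.44, 1.30 and 10.3 CPM to 0.838, 0.502, 0.644 and 0.539 CPM; -2.68 ± 0.68), Cyp26b1, which degrades retinoic acid (6, 13.3, 32.3 and 6.12 CPM to 3.94, 4.65, 3.91 and 1.22 CPM; -2.07 ± 0.50), and Ccn3, a matricellular protein. Single normoxia libraries set part of these sizes. Adrb1 had -1.63 (adjusted p = 0.165, edgeR) without normoxia flox 4, and Cyp26b1 had -1.30 (adjusted p = 0.109, edgeR) without normoxia flox 3. Gda, guanine deaminase, had -1.77 ± 0.45 with all libraries and -0.95 (adjusted p = 0.105, edgeR) without normoxia flox 4, where it stood at 50.1 CPM against 11.6 to 12.7 CPM in the other 3.

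Other decreases were called whichever single flox library was left out. Ccn3 was at 43.9, 21.5, 18.6 and 33.1 CPM in normoxia and at 8.34, 6.11, 11.1 and 3.82 CPM in hypoxia (-1.99 ± 0.39). Ptprj, a receptor tyrosine phosphatase, was at 227, 234, 238 and 237 CPM and at 176, 129, 152 and 122 CPM (-0.69 ± 0.13). Glce, an epimerase of heparan sulfate synthesis, was at 55.2, 50.1, 52.8 and 59.2 CPM and at 41.3, 41.8, 43.2 and 40.0 CPM (-0.39 ± 0.06). Nuak1, C1qtnf9 and Pdlim2 fell by 1.25, 0.97 and 0.72 on the log2 scale. Glul, glutamine synthetase, and Enah, which extends actin filaments, fell by 0.66 and 0.63. These 8 genes were called in all 8 leave-one-out fits. Ccn3 did not pass with only the flox libraries in the fit (-2.01, adjusted p = 0.0506, edgeR). Pdlim2 did not pass without the libraries that held both Xist and Y-linked RNA (-0.69, adjusted p = 0.0537, edgeR). Bmp6, a ligand of the bone morphogenetic protein family, fell by 1.10 ± 0.25 and Smad1, which relays that signal, rose by 0.61 ± 0.14, the only calls among 26 BMP and TGF-beta genes; they were called in 4 and 2 of the 8 leave-one-out fits.

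Several programmes gave few or no calls, where 2.34% of all genes tested rose and 0.462% fell. No member of the inflammation and adhesion (22 tested), NF-kB (20), interferon (30), antigen presentation (16), vasoactive (25), immediate early (28), heat shock (20), cholesterol (24), glucocorticoid (21), circadian (17), fatty acid (25) or ribosomal (32) list passed edgeR. Of these, DESeq2 called 1 in the inflammation list, 1 in the vasoactive list and 1 in the ribosomal list. At an unadjusted p under 0.05, counts ran from 0 in the interferon, antigen presentation and immediate early lists to 6 of 25 in the vasoactive list, beside 17.8% of all genes tested. With a covariate for the immediate early genes, edgeR called 4 NF-kB targets, 3 vasoactive and 3 immediate early genes, 2 glucocorticoid genes and 1 gene each in the inflammation, circadian, fatty acid and ribosomal lists, among them Edn1 (-0.64), Icam1 (0.55) and Fos (-0.30). In 5 lists the calls were single genes or pairs: Atf5 (0.92 ± 0.17) among 27 stress response genes, Gsta4 (0.59 ± 0.12) among 23 oxidative stress genes, Adamts9 among 20 genes of the CCM complex and KLF axis, F5 (0.76 ± 0.17) and Anxa2 (0.49 ± 0.12) among 23 coagulation genes, and Steap3 (0.66 ± 0.16) and Bmp6 among 17 iron genes. F5, Anxa2 and Steap3 were called in 3, 3 and 2 of the 8 leave-one-out fits. Klf2 and Klf4, the flow-responsive factors, had -0.28 and -0.55 and overlapped between the groups.

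Neuron and microglia RNA was highest in normoxia flox 4. The neuron list had a median of -5.36 and the microglia and macrophage list one of -2.96; edgeR called no member of either, DESeq2 called 0 and 2, and 11 of 13 and 8 of 14 had an unadjusted p under 0.05, all lower. The microglia and macrophage markers summed to 231.9 CPM in normoxia flox 4 and to 27.6 to 35.8 CPM in the other 3 normoxia flox libraries, against 24.9 to 31.9 CPM in hypoxia. Among astrocyte markers Fgfr3 was called, at -1.19 ± 0.27, and its level was 56.1, 69.8, 89.5 and 111 CPM in normoxia and 36.3, 30.9, 53.7 and 22.7 CPM in hypoxia. Without normoxia flox 4 its change was -1.01 (adjusted p = 0.0594, edgeR). Lymphocyte markers summed to 5.73 to 19.8 CPM in normoxia and 5.49 to 25.1 CPM in hypoxia. Globin and other erythroid RNA was higher in each hypoxia library, with a summed level of 3568 to 4862 CPM against 1383 to 2759 CPM. No erythroid gene passed edgeR or DESeq2; 4 of 8 had an unadjusted p under 0.05, and the globin paralogs share reads.

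The same oxygen contrast in the KO libraries, which shares no sample with the flox contrast, called 260 genes (1.48%), 125 higher (0.713%) and 135 lower (0.770%). Called in both were 96 genes, 71 higher and 25 lower, and none in opposite directions. They made up 19.5% of the flox calls and 36.9% of the KO calls. Of the 411 genes that rose in flox, 385 had a positive log2 fold change in KO, with a median of 0.55 there against 1.24 in flox. Of the 81 genes that fell in flox, 73 had a negative value in KO, with medians of -0.45 and -0.81. The share of all genes tested with the same sign in both contrasts was not counted. Each contrast held a normoxia library with neural RNA, and the neuron list had medians of -5.36 in flox and -4.51 in KO. The part of these libraries in the shared decreases was not tested.

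A test of the difference between the responses (the interaction of oxygen and genotype) called 78 genes (0.445%). Each of the 78 genes had the higher log2 fold change in flox, a sign that a fall in KO can also give. Of these, 74 had also risen in flox; the other 4, Klhl4, Tmem45a, Calcrl and Lyve1, had not passed there. By edgeR no gene was called with the higher log2 fold change in KO, while 337 of that kind had an unadjusted p under 0.05. DESeq2 called 20 of them. The count rested on many libraries: with any 1 flox library other than normoxia flox 4 left out it was 28 to 44, and it was 50 and 33 without normoxia KO 5 and 6. Without normoxia flox 4 it was 98, of which 8 had the higher log2 fold change in KO. The mix of Xist and Y-linked RNA differed among the KO libraries too. With the sex covariate 72 genes were called, 95.8% of them with the higher log2 fold change in flox. The Mki67 response was larger in flox by 3.56 on the log2 scale (adjusted p = 0.013, edgeR), and Espl1 had the smallest adjusted p (a difference of 2.85, adjusted p = 8.78e-05, edgeR). Of the 32 proliferation genes, 20 were called in this test.

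The levels behind that difference can be seen for Mki67, which stood at 13.1 to 42.9 CPM in normoxia KO and at 35.2 to 92.9 CPM in hypoxia KO. Summed over the proliferation list, normoxia KO ran from 303.8 to 437.2 CPM, above every normoxia flox library (200 to 245.2) and below every hypoxia flox library (574.7 to 834.3), and hypoxia KO ran from 398.6 to 722 CPM. In the KO libraries 2 of the 32 proliferation genes rose, with a median of 0.73, where 0.713% of all genes tested rose.

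Basement membrane genes were also called in KO, where 9 of the 22 rose and 1 fell, against 0.713% and 0.770% of all genes tested. Col4a1 rose by 0.88 in flox and 0.74 in KO, Nid1 by 1.23 and 0.88, Lama4 by 1.09 and 0.88, and Lamc1 by 0.69 and 0.62. The difference between the responses of Col4a1 had a 95% interval of -0.13 to 0.42 and that of Nid1 one of 0.02 to 0.67, with no adjustment for the number of genes. Lama1 was the exception among laminins, at 1.34 in flox and -0.72 in KO, a difference of 2.06 (adjusted p = 0.00544, edgeR). F5, clotting factor V, also differed, at 0.76 and -0.47 (a difference of 1.23, adjusted p = 0.0245, edgeR).

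**Figure D5:**
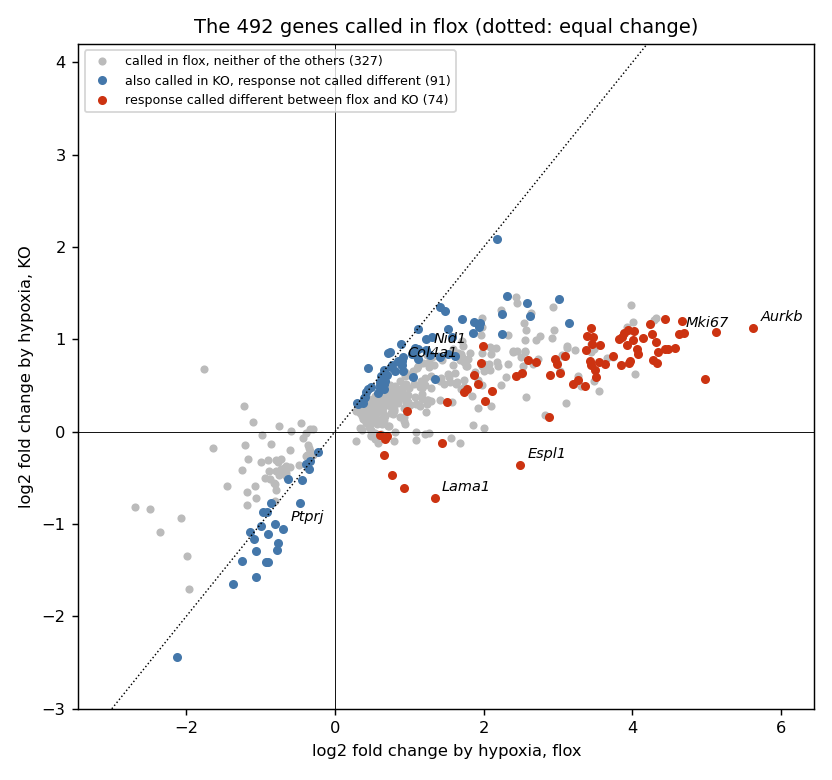
Log2 fold change by hypoxia in KO (vertical axis) against that in flox (horizontal axis) for the 492 genes called in flox; red marks the 74 genes also called in the interaction test and blue the 91 others also called in KO. Red points stretch to the right at KO values near 1 or below, and Col4a1, Nid1 and Ptprj lie near the dotted line of equal change.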

How the data were processed

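RNA of brain endothelium was sequenced in 18 libraries. The authors deposited a table of whole-number counts per gene and a second table of RPKM, from a stranded mRNA kit per the labels' protocols; HISAT2, edgeR and GRCm39 are named per the submitters' processing notes, and the annotation, strand setting and counter are not given in the sources used here. Rows without a gene symbol held 0.723% of the counts and stayed in the tests. The deposited RPKM served for levels between genes and as an alternative only.

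Counts were tested with edgeR 4.0.16 (R 4.3.3; TMM scaling, filterByExpr, robust quasi-likelihood fit, all 18 libraries in 4 groups, Benjamini-Hochberg adjustment over 17531 genes, threshold 0.05). CPM used TMM-scaled totals, log2 CPM a prior count of 2, and intervals a level of 95%. Fold changes came from the quasi-likelihood fit at its default prior count. DESeq2 1.42.0, limma 3.58.1 on log2(RPKM + 0.1) and log2(RPKM + 1), other filters and scalings, covariates and left-out libraries were alternatives. The fit without the Xist-holding normoxia flox libraries was added after seeing the data; it takes the spread of the lone normoxia flox library from the other groups. On simulated data, 80.3% of genes changed 4-fold and 55.2% of those changed 2-fold were recovered in the flox comparison. Of those changed 1.5-fold, 28.4% were recovered, and 7 of 116 calls were false. The changed genes all had a mean CPM of at least 1, so the rates do not cover genes below that level. No replicate pair matched within sampling noise (smallest chi-square per gene 7.48).

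Genes were named by a rule: a fixed set; the 12 highest and 12 lowest fold changes among called genes without overlap whose average log2 CPM reached 1; the 6 smallest p-values per direction; up to 4 per list; and 5 for the interaction. Other genes and the gene families were chosen after their values were seen. The comparison, lists and rule were chosen with earlier results of these data known. Promoters were taken from RefSeq (GRCm38.p6), 250 bases each.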

Additional observations from a re-analysis of the deposited data

Results flagged for a closer look

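Among 140 groups of 4 flox libraries that were looked at, 10 had a library far from the other 3, where chance alone gives about 1 in 20. The measure is the gap from the extreme library to its nearest neighbour as a share of the group's range on the log2 scale. Normoxia flox 4 was apart for Gda (0.938), where it was highest, for Epas1 (0.853), Flt1 (0.91) and Abcb1a (0.858), where it was lowest, and for the mean of the neuron markers (0.91), at 7.51 on the log2 CPM scale against 0.30 to 0.95. Normoxia flox 1 was apart for Pdlim2 (0.878), where it was lowest, and for the heat shock gene Hspa1a (0.952), at 9558 CPM against 2065 to 2221 CPM. Hypoxia flox 2 was highest for Kif18b (0.843) and the adhesion gene Vcam1 (0.869), and hypoxia flox 5 was lowest for Cyp26b1 (0.867).

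The oxygen response differed between flox and KO in 78 genes by the interaction test (adjusted p under 0.05, edgeR). The 5 with the smallest adjusted p had a larger response in flox, by 2.85 on the log2 scale for Espl1, 3.47 for Hmmr, 2.29 for Kif20a, 4.40 for Pimreg and 1.31 for Uhrf1.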

How the results depend on the processing

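The number of genes called in flox, 492, was 332 to 481 when 1 flox library was left out. With only the 8 flox libraries in the fit it was 329, with 290 of the 492 among them. That fit lost 22 of the 65 named calls. The number of genes called was within 1.5 times of 492 under every setting run but 3. It was 833 with DESeq2 (482 of the 492 among them), 937 with a covariate for the immediate early genes, and 92 without the normoxia flox libraries that hold Xist. The share of calls that were higher was 83.5%, and 67.2%, 70.4%, 70.3% and 93.6% with DESeq2, the immediate early covariate, without the libraries of neural RNA and on log2(RPKM + 0.1). The KO count, 260, was 107 with only the KO libraries in the fit, 617 with DESeq2, 490 with the immediate early covariate and 53 to 523 with 1 library left out (the lowest without hypoxia KO 2, the highest without hypoxia KO 1). The interaction count, 78, was 145 with DESeq2, 42 on log2(RPKM + 1) and 28 to 98 with 1 library left out; it was not run with only the groups compared. The cause of these shifts was not tested, beyond the smaller number of samples in some fits. The log2 fold change of Egln3, -0.03, ran from -0.39 (without normoxia flox 3) to 1.27 (without normoxia flox 4) when 1 flox library was left out, and was 1.27 without both libraries of neural RNA. Of 65 named genes called, 38 lost the call without the Xist-holding libraries, and 8 to 20 when 1 flox library was left out.

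With the replicate number as a block, 355 genes were called in flox, 43 in KO and 3 in the interaction. Same-numbered flox libraries had correlations of -0.217, -0.525 and -0.373 between their deviations from the group means. Flox pairs of unlike number ran from -0.665 to 0.678. So few pairs, none of them from KO, cannot decide whether the numbers pair the samples. Normoxia levels of mitotic genes near or below 1 CPM limit the precision of their fold changes.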
